A study of Mus musculus with 10 samples.

Results

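The 9 genes described here are Hif1a, Epas1, Egln1, Egln3, Vegfa, Adm, Ndrg1, P4ha1 and Ddit4, a list of hypoxia-inducible factor (HIF) subunits, oxygen sensors and genes known to be induced by low oxygen. They were taken by symbol from the 38922 genes of the liver count tables, and all 9 were found and passed the filter on low counts. Wild-type male C57BL/6N mice aged 6 weeks received saline (n = 5) or CD95-Ab at 0.5 µg/g body weight (n = 5) intraperitoneally, and their livers were taken 6 h later. CD95-Ab is an antibody that activates the death receptor Fas, and 1 RNA-seq library was made per mouse from whole liver. Levels are given as CPM, expected read counts scaled to an adjusted total of 1000000, and differences as log2 fold changes of CD95-Ab against saline with their standard error (SE), with p-values adjusted over all 13719 tested genes by the Benjamini-Hochberg method (FDR) from the quasi-likelihood test of edgeR.

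HIF is a dimer of an oxygen-sensitive alpha subunit and the stable partner ARNT. Where oxygen is plentiful, prolyl hydroxylases of the EGLN (PHD) family mark the alpha subunit for recognition by the VHL ubiquitin ligase and for degradation, and where oxygen is scarce the alpha subunit accumulates, enters the nucleus and binds hypoxia response elements. This step takes place on the protein and is not read by RNA counts. In liver, oxygen falls from the portal to the central vein, and HIF targets are known to act there on vessel growth, glycolysis, iron handling and matrix assembly.

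Each of the 9 genes was higher on average after CD95-Ab, and 5 of them passed the FDR threshold of 0.05. The hydroxylase-sensitive subunit Hif1a rose 2.85-fold, the vasodilator peptide Adm 21.8-fold, the collagen prolyl 4-hydroxylase subunit P4ha1 2.50-fold, the oxygen sensor Egln3 2.37-fold and the stress-response gene Ndrg1 1.91-fold. Epas1, Egln1, Vegfa and Ddit4 did not pass the threshold, and no gene of the list was called lower. The median log2 fold change of the 9 genes was 0.93, against 0.01 for all tested genes. These genes and the lists below were chosen with earlier results of these data known. Comparisons of them with all tested genes are therefore descriptions only. Changes were widespread in these livers, since 25.4% of all tested genes were called higher and 22.0% lower, 47.3% in either direction, so a call on a single gene was common. With a log2 fold change of at least 2 required as well, 6.59% of tested genes were called higher and 1.11% lower, and Adm was the 1 gene of the list that met this limit.

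The total per mouse was between 25965699 and 62097636 counts, and 3 counts correspond to 0.0556 to 0.121 CPM on the adjusted totals. The lowest value among the 9 genes, Adm in saline-injected mice, lay above that level in every mouse. The library of saline replicate 5 and that of CD95-Ab replicate 4 stood apart from the other 8 on the second principal component (9.84% of the variance). Counts for the 9 genes and the gene lists are therefore also given without them where they differed. Over all tested genes, 3636 were called higher and 3457 lower without these libraries. On the first component (67.7% of the variance) both lay with the other libraries of their groups. Saline replicate 5 held 21.9% mitochondrial counts and CD95-Ab replicate 4 held 22.1%, the highest shares of all mice. The other controls held 7.56% to 10.1% and the other CD95-Ab mice 8.45% to 18.04%. Saline replicate 5 also had the largest total, 62097636 counts. The part of these differences in the separation was not tested.

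The marker lists of liver cell types moved with the groups, and the CPM values given for them are sums over each list. The summed CPM of 8 hepatocyte markers ranged from 106382 to 132348 in saline-injected mice and from 49666 to 87656 after CD95-Ab, with 4 of 8 called lower. In the same mice 7 of 8 endothelial markers (56.2 to 126 CPM against 190 to 375 CPM), 3 of 7 Kupffer cell and macrophage markers (130 to 443 CPM against 272 to 586 CPM) and 5 of 7 stellate cell markers (162 to 223 CPM against 365 to 599 CPM) were called higher. All 7 tested of 8 neutrophil markers rose, from 4.19 to 10.6 CPM up to 110 to 452 CPM. All 6 erythroid genes rose as well, from 135 to 325 CPM up to 1064 to 34009 CPM. Lymphocyte markers (6 of 8 called higher, 1.49 to 5.22 CPM against 8.05 to 14.9 CPM) and cholangiocyte markers (4 of 5 called higher, 18.3 to 33.8 CPM against 48.3 to 186 CPM) moved the same way, and no marker on these lists was at 0 in all 10 mice. The part that these cells play in the values below was not tested. In RNA of whole liver, fewer cells of a type and less RNA per cell cannot be told apart. Rn7sk, a small nuclear RNA without a poly(A) tail, was at 0.204 to 0.808 CPM in the controls and went up to 355 to 1301 CPM. Its part in the results was not tested either.

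The core of a hypoxia response element is written ACGTG or GCGTG. Promoter windows of 250 bases before the RefSeq transcription start (GRCm38.p6) were found for 7 of the 9 genes, with 2 windows for Vegfa, and searched on both strands. These letters were found at least once in 7 of the 8 windows and at least 2 times in 6 of them, whereas 38.6% of all 32851 promoter windows of that length held at least 1 copy and 16.7% at least 2. One Vegfa window held none, and 218 of the 250 bases of the other, which held 2, are exon of an annotated transcript. Epas1 and Ndrg1 were not searched. The windows of Egln1 and Ddit4, which did not pass the FDR threshold, held these letters 2 times each, as often as that of Adm and more often than that of Egln3. An annotated exon covers 70 bases of the Egln1 window, among them its match at -68. In the Ddit4 window an annotated exon covers 64 bases. The windows of 4 of the genes that rose are shown because their changes carry the results, each 5′ to 3′ on the strand of its gene, with matches in capitals, and a match is a string of letters and not a measured binding site. Positions count back from the start site, at which the base just before it is -1, and give the leftmost base of a match. The Hif1a window (chr12:73907617-73907866, plus strand) lies inside the span of the gene and holds matches at -135, -134 and -70, the first 2 of which overlap on opposite strands in 1 CACGTG, the letters of an E-box. The Egln3 window (chr12:54203875-54204124, minus strand) holds 1 match at -229, that of Adm (chr7:110627407-110627656, plus strand) holds matches at -90 and -54, both on the opposite strand, and that of P4ha1 (chr10:59323046-59323295, plus strand) holds matches at -163, -126 and -16. None of these 4 windows overlaps an annotated exon.
Hif1a: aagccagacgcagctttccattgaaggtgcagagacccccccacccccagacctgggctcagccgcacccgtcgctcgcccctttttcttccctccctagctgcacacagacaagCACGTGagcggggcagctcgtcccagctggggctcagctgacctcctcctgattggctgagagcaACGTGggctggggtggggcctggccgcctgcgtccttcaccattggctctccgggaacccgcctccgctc
Egln3: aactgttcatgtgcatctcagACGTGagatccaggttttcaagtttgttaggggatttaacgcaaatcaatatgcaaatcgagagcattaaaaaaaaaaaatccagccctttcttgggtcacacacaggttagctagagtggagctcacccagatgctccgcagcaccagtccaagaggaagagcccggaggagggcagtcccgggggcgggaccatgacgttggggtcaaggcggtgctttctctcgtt
Adm: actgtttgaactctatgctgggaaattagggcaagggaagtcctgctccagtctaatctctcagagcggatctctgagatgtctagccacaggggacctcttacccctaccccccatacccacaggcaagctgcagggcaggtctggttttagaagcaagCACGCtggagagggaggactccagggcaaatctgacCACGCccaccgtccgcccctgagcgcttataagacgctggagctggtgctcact
P4ha1: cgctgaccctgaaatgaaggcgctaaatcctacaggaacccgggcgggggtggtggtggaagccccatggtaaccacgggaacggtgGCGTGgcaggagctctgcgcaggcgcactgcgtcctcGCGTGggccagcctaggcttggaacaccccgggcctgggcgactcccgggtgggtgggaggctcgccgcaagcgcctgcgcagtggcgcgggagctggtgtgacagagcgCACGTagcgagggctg

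Hif1a (ENSMUSG00000021109, chr12:73901375-73947530 in GRCm38) encodes the alpha subunit of HIF-1. Its level in saline-injected mice was 30.3, 32.2, 32.8, 32.4 and 22.8 CPM in replicates 1 to 5. After CD95-Ab the values were 73.8, 90.3, 118, 65.6 and 80.2 CPM. All 5 injected mice lay above all saline-injected controls, among which replicate 5 was the lowest. The means were 30.1 ± 4.2 and 85.7 ± 20.4 CPM (SD, n = 5 each), a log2 fold change of 1.51 (SE 0.17, FDR = 3.1e-05 by edgeR). Groups that did not overlap in this direction were found for 18.6% of all tested genes, and for 14.7% in the opposite direction. An antisense gene, Gm15283, overlaps Hif1a and held at most 8 counts in any mouse.

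Epas1 (ENSMUSG00000024140, chr17:86753700-86833410) encodes HIF-2 alpha, a paralogue of HIF-1 alpha that is abundant in endothelial cells and controls erythropoietin in adult liver and kidney. The saline-injected mice held 129, 121, 163, 143 and 126 CPM. Mice injected with CD95-Ab held 183, 177, 265, 109 and 136 CPM. The 3 highest values were all from mice injected with CD95-Ab, but so was the lowest, and the groups overlapped. The log2 fold change was 0.35 (95% interval -0.11 to 0.81, FDR = 0.19 by edgeR). Without CD95-Ab replicate 4, one of the libraries that stood apart, it was 0.46 with an FDR of 0.049 by edgeR, and with both of those libraries left out 0.44 with an FDR of 0.080.

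The balance of the alpha subunits, taken within each mouse, differed between the groups. The log2 ratio of Hif1a to Epas1 counts was -2.18 ± 0.21 in controls and -0.99 ± 0.25 after CD95-Ab (SD, n = 5 each), a 2.29-fold difference with all 5 CD95-Ab mice above all controls (exact two-sided permutation test, p = 0.00794, adjusted over 5 ratios p = 0.00992). This p is the smallest that 5 mice against 5 can give. The genes of all 5 ratios come from lists chosen with earlier results of these data known. The p-values of the ratios therefore describe the separation and are not separate support for it. How often other pairs of genes separate in this way was not tested. Epas1 counts stayed above Hif1a counts in all 10 mice, since every ratio was below 0. By FPKM, which also corrects for length, Hif1a was at 7.26 ± 1.53 and Epas1 at 26.8 ± 4.04 in saline-injected mice (SD, n = 5), and at 19.03 ± 4.14 and 32.4 ± 10.8 after CD95-Ab (SD, n = 5).

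Most other genes of the HIF machinery did not pass the test. Of 17 subunits, sensors and regulators, 15 were tested, of which 3 were called higher (Hif1a, Egln3 and Arnt) and 1 lower (Egln2), with a median log2 fold change of 0.11. The number called higher was 4 without both libraries that stood apart, without CD95-Ab replicate 4, and with at least 10 counts in every mouse. It was 2 with upper-quartile or total scaling and with the replicate number as a block. It was also 2 without saline replicate 3 or 4 or CD95-Ab replicate 1, 2 or 5. The 3 higher and 1 lower are 20.0% and 6.67% of the tested list, against 25.4% and 22.0% of all tested genes. With the 9 genes left out of this list, 1 of 11 tested was called higher and 1 lower, with a median of 0.03. Arnt, the constitutive dimer partner, went from 30.6 ± 2.95 to 37.4 ± 2.86 CPM (SD, n = 5 each), and this rise of 0.29 on the log2 scale (SE 0.10) had an FDR of 0.038 by edgeR. That call was lost in 11 of 18 alternatives, over which the FDR ranged from 0.024 to 0.30 and the log2 fold change from 0.21 to 0.34. Vhl, the ligase that recognises hydroxylated HIF, had a log2 fold change of 0.03 (95% interval -0.31 to 0.38). Hif1an, the asparaginyl hydroxylase that blocks coactivator binding, had one of -0.26 (95% interval -0.58 to 0.07). Cited2, a competitor for the coactivator p300, varied from 10.7 to 31.8 CPM among controls and from 13.4 to 42.2 CPM in injected mice, with a log2 fold change of 0.61 and an FDR of 0.21 by edgeR. Hif3a and Arnt2 did not pass the filter and reached 15 and 4 counts at most in any mouse.

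**Figure D1:**
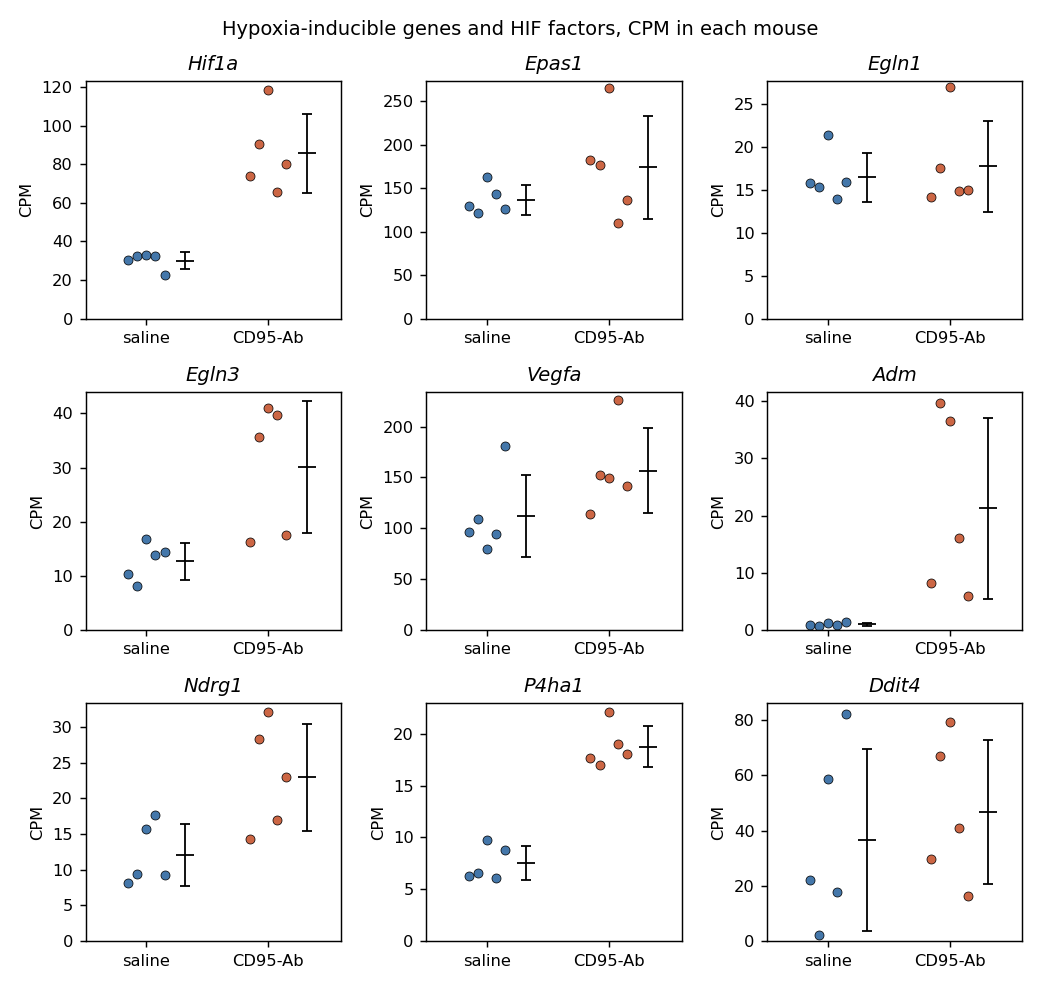
CPM of the 9 genes in each mouse, with saline in blue and CD95-Ab in red, and the bars beside the points giving mean ± SD (n = 5 each). The points of the groups do not overlap for Hif1a, Adm and P4ha1, whereas Ddit4 ranges from 2.31 to 82.1 CPM within the saline-injected mice alone.

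Of the oxygen sensors, Egln3 rose, Egln2 fell and Egln1 did not pass the test. Egln1 (ENSMUSG00000031987, chr8:124908587-124949324) encodes PHD2, the main HIF hydroxylase at normal oxygen. Its values were 15.8, 15.4, 21.4, 14.0 and 15.9 CPM in saline-injected mice, and 14.2, 17.6, 27.0, 14.9 and 15.03 CPM after CD95-Ab. In both groups replicate 3 was the highest and the other 4 mice lay close together. The log2 fold change was 0.11 (95% interval -0.31 to 0.52, FDR = 0.67 by edgeR), and it was -0.10 without CD95-Ab replicate 3.

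Egln3 (ENSMUSG00000035105, chr12:54178981-54203860), which encodes PHD3 and is itself a known HIF target, was at 10.3, 8.06, 16.8, 13.8 and 14.4 CPM in saline-injected mice. The CD95-Ab values were 16.3, 35.7, 41.1, 39.7 and 17.6 CPM. The injected mice fell into 2 near the highest control (replicates 1 and 5) and 3 well above it, and 4 of 5 exceeded every control. The log2 fold change was 1.25 (SE 0.29, FDR = 0.0044 by edgeR).

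The within-mouse log2 ratio of Egln3 to Egln1 went from -0.41 ± 0.37 to 0.69 ± 0.52 (SD, n = 5 each), a 2.15-fold difference in which all 5 CD95-Ab mice lay above all controls (exact permutation test, p = 0.00794, adjusted p = 0.00992). Egln2, which encodes PHD1, fell from 40.9 ± 4.32 to 26.7 ± 6.18 CPM (SD, n = 5 each). Its values after CD95-Ab, 18.4 to 33.7 CPM, were all under the lowest control at 34.7 CPM, with a log2 fold change of -0.62 (SE 0.16, FDR = 0.0081 by edgeR).

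**Figure D2:**
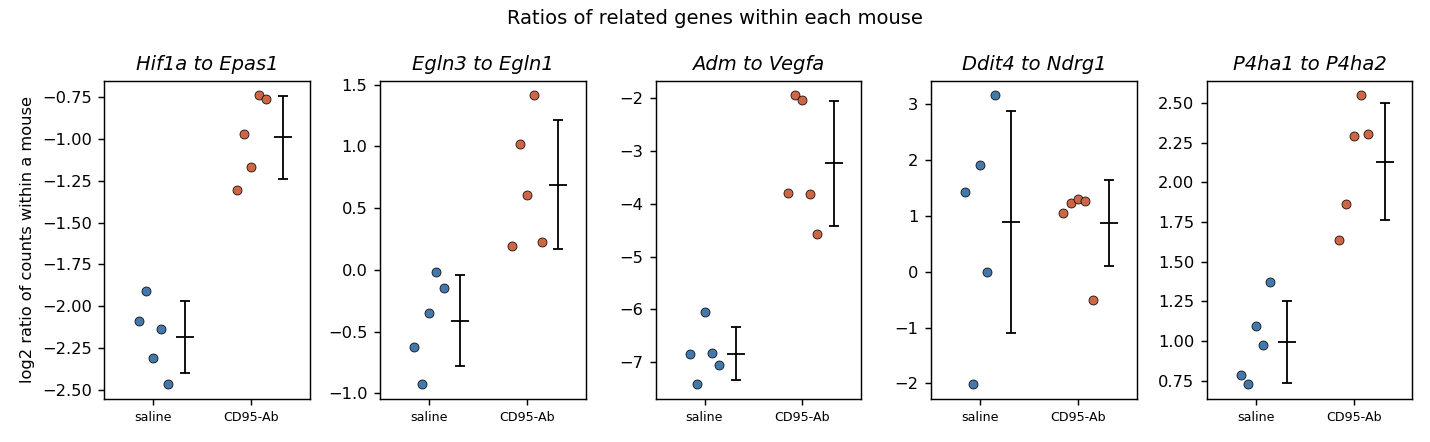
Log2 ratio of the counts of related genes within each mouse (pseudocount 0.5), with saline in blue, CD95-Ab in red and bars for mean ± SD (n = 5 each). The groups are separate for Hif1a to Epas1, Egln3 to Egln1, Adm to Vegfa and P4ha1 to P4ha2, and overlap for Ddit4 to Ndrg1.

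Adm (ENSMUSG00000030790, chr7:110627661-110629820) encodes adrenomedullin, a peptide that widens vessels and tightens the endothelial barrier. The controls held 0.823, 0.623, 1.18, 0.808 and 1.35 CPM. Mice injected with CD95-Ab held 8.22, 39.6, 36.5, 15.99 and 5.91 CPM. All injected mice were above all controls, but they differed among themselves by 6.71-fold, more than in any other of the 9 genes in that group. This gave a log2 fold change of 4.44 (SE 0.56, 95% interval 3.23 to 5.66, FDR = 6.2e-05 by edgeR).

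Adrenomedullin receptors are formed by the G-protein-coupled receptor Calcrl with the membrane partner Ramp2 or Ramp3, while Calcrl with Ramp1 is the receptor of the related peptide CGRP. Of 9 peptides and receptors on this list 6 were tested, and 4 rose (Adm, Calcrl, Ramp3 and Ackr3) while none fell, and the median log2 fold change was 2.00. With Adm left out, 3 of 5 tested genes rose (60.0%, against 25.4% of all tested genes), and the median was 1.09. Calcrl rose from 6.23 ± 1.21 to 13.3 ± 4.38 CPM (SD, n = 5 each), and its groups did not overlap (log2 fold change 1.09, FDR = 0.0020 by edgeR). Ramp3, at 0.0296 to 0.310 CPM in saline-injected mice, was at 0.753 to 3.82 CPM after CD95-Ab (log2 fold change 3.69, SE 0.63, FDR = 0.00056 by edgeR), and the controls rested on few counts, down to 1 in 1 mouse. Ackr3, a receptor that takes up adrenomedullin as well as the chemokine CXCL12, was at 0.267 to 0.845 CPM in the controls. After CD95-Ab it was at 2.23 to 2.48 CPM in 4 mice and at 8.16 CPM in replicate 3 (log2 fold change 2.90, FDR = 0.00033 by edgeR). Ramp2 and Ramp1 were not called, with log2 fold changes of -0.10 (95% interval -0.75 to 0.56) and 0.04 (95% interval -0.41 to 0.49). Where at least 10 counts were required in every mouse, Ramp3 and Ackr3 were not tested, and the other 2 genes that rose were called higher again.

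Vegfa (ENSMUSG00000023951, chr17:46016993-46032369) encodes vascular endothelial growth factor A, a textbook target of HIF. It was at 96.4, 110, 79.5, 93.9 and 181 CPM in saline-injected mice. After CD95-Ab it was at 114, 153, 149, 226 and 142 CPM. The highest mouse of each group was one of the libraries that stood apart on the second component, saline replicate 5 and CD95-Ab replicate 4, and the other 4 controls were all below the lowest CD95-Ab value. With all 10 mice the log2 fold change was 0.48 (SE 0.24, 95% interval -0.033 to 1.003, FDR = 0.11 by edgeR). Without saline replicate 5 it was 0.72 (FDR = 0.0098 by edgeR), without CD95-Ab replicate 4 it was 0.29 (FDR = 0.32 by edgeR), and without both it was 0.55 (FDR = 0.0079 by edgeR). The count of genes called higher among the 9 was 6 with both left out.

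The log2 ratio of Adm to Vegfa within a mouse went from -6.84 ± 0.50 to -3.23 ± 1.18 (SD, n = 5 each), a 12.2-fold difference with all 5 CD95-Ab mice above all controls (exact permutation test, p = 0.00794, adjusted p = 0.00992). The ratio of count to FPKM, which depends on the effective length that RSEM assigns to the transcripts of a gene, also differed for Vegfa. Divided by the same ratio for the median gene, it was 0.871 to 0.937 in saline-injected mice and 0.956 to 1.10 after CD95-Ab, without overlap. Such a separation in this direction was found in 1.04% of the 6840 genes with sufficient reads, and in none of the 6 other members measured there (Hif1a, Epas1, Egln1, Egln3, Ndrg1 and P4ha1). Which Vegfa isoforms were present was not tested.

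Among 9 tested of 10 genes of the VEGF family and its receptors, 3 rose, 1 fell and 5 did not pass the test, and the median log2 fold change was 0.48. With both libraries that stood apart left out, 4 rose and 1 fell, 5 rose without saline replicate 5, and 2 fell without saline replicate 3 or 4 or CD95-Ab replicate 4. With Vegfa left out of the list, 3 of 8 tested genes rose (37.5%) and 1 fell (12.5%), with a median of 0.53. Of all tested genes, 25.4% were called higher and 22.0% lower. Flt1, the receptor VEGFR1 that also acts as a decoy for VEGFA, rose from 4.55 ± 1.87 to 19.8 ± 7.24 CPM (SD, n = 5 each), without overlap (log2 fold change 2.11, SE 0.32, FDR = 0.00025 by edgeR). Nrp2, a co-receptor for VEGFC and semaphorins, rose from 2.95 ± 1.11 to 13.0 ± 2.80 CPM (SD, n = 5 each; log2 fold change 2.13, SE 0.27, FDR = 6.6e-05 by edgeR). Kdr, the main signalling receptor VEGFR2, was at 6.76 to 16.8 CPM in controls and at 10.9 to 21.1 CPM after CD95-Ab, a log2 fold change of 0.29 (95% interval -0.22 to 0.80). Vegfc, a lymphatic growth factor, rose by 0.86 on the log2 scale, whereas Vegfb fell by 0.88 (FDR = 0.0036 and 0.013 by edgeR). Vegfd had a log2 fold change of -0.95 (FDR = 0.051 by edgeR), and Flt4 and Nrp1 had log2 fold changes of 0.76 (FDR = 0.078 by edgeR) and 0.26 (FDR = 0.37 by edgeR). Pgf did not pass the filter. Of 8 endothelial markers, 7 rose in the same mice and Kdr, which stands on both lists, was the exception, and the part of endothelial cell content in the receptor values was not tested.

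**Figure D3:**
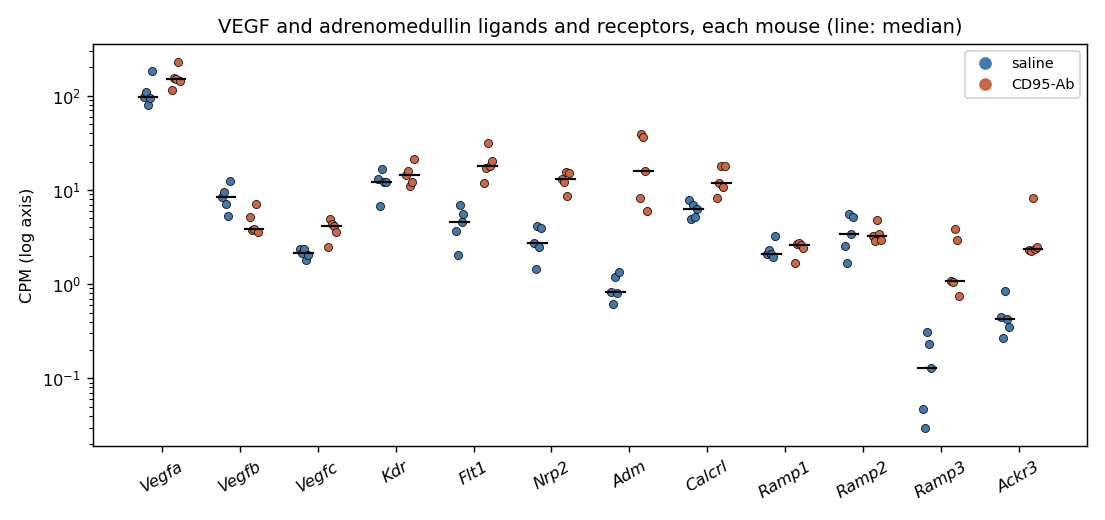
CPM on a log axis for VEGF and adrenomedullin ligands and receptors in each mouse, with saline in blue, CD95-Ab in red and lines for the medians (n = 5 each). The points of Flt1, Nrp2, Vegfc, Adm, Calcrl, Ramp3 and Ackr3 do not overlap between groups.

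P4ha1 (ENSMUSG00000019916, chr10:59323296-59373304) encodes a catalytic subunit of collagen prolyl 4-hydroxylase, which allows collagen chains to fold into a stable triple helix. It was at 6.30, 6.58, 9.72, 6.08 and 8.81 CPM in saline-injected mice. Injected mice held 17.6, 17.04, 22.1, 18.97 and 18.1 CPM. The injected mice were close to each other, with the smallest relative spread of the 9 genes in that group (coefficient of variation 10.7%), and all were above all controls. The difference was 1.32 on the log2 scale (SE 0.16, FDR = 4.0e-05 by edgeR).

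The related catalytic subunit P4ha2 had a log2 fold change of 0.22 (95% interval -0.18 to 0.62), from 3.73 ± 0.56 to 4.34 ± 0.94 CPM (SD, n = 5 each). The log2 ratio of P4ha1 to P4ha2 within a mouse went from 0.99 ± 0.26 to 2.13 ± 0.37 (SD, n = 5 each), a 2.20-fold difference with all 5 CD95-Ab mice above all controls (exact permutation test, p = 0.00794, adjusted p = 0.00992). Among 8 tested of 9 collagen hydroxylases and lysyl oxidases, 5 rose (Lox, Loxl2, Plod2, P4ha1 and, named after its value was seen, Plod3) and none fell, with a median log2 fold change of 0.96. With P4ha1 left out, 4 of 7 tested genes rose (57.1%, against 25.4% of all tested genes), and the median was 0.60. Lox and Loxl2, which cross-link collagen and elastin outside the cell, had log2 fold changes of 3.23 (SE 0.66) and 2.76 (SE 0.42), and Plod2, a lysyl hydroxylase, had one of 1.86 (SE 0.40). These were genes of low level in the controls, with Lox at 0 to 0.346 CPM, Loxl2 at 0.538 to 1.51 CPM and Plod2 at 0.423 to 1.07 CPM, and CD95-Ab replicate 3 was the highest mouse for each of them. P4hb, the shared beta subunit of the prolyl hydroxylase and a general chaperone, was at 938 ± 82.4 and 983 ± 98.6 CPM (SD, n = 5 each), with a log2 fold change of 0.07. Stellate cell markers, of which 5 of 7 rose, moved with these genes, and their part was not tested.

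Ndrg1 (ENSMUSG00000005125, chr15:66929318-66969640), a gene induced by hypoxia, iron loss and other stress, was at 8.16, 9.40, 15.7, 17.7 and 9.20 CPM in saline-injected mice. Mice injected with CD95-Ab had 14.3, 28.4, 32.1, 16.99 and 22.9 CPM. The groups overlapped, with 3 of 5 injected mice above the highest control and the other two among the controls. Ndrg1 rose by 0.93 on the log2 scale (SE 0.27, FDR = 0.014 by edgeR). The overlapping antisense or divergent transcripts Gm17035 and Gm2895 held 0 and at most 2 counts in any mouse.

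Its paralogues moved in the opposite direction. Ndrg2 fell from 879 ± 121 to 518 ± 30.7 CPM (SD, n = 5 each), and its groups did not overlap (log2 fold change -0.76, SE 0.14, FDR = 0.00085 by edgeR). Ndrg3 fell from 15.4 ± 2.07 to 6.26 ± 1.09 CPM (SD, n = 5 each), also without overlap (log2 fold change -1.29, SE 0.15, FDR = 3.4e-05 by edgeR). Ndrg4 did not pass the filter.

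Ddit4 (ENSMUSG00000020108, chr10:59949669-59951834) encodes REDD1, an inhibitor of mTORC1 that responds to hypoxia, DNA damage and glucocorticoids. It was at 22.0, 2.31, 58.8, 17.7 and 82.1 CPM in saline-injected mice. After CD95-Ab it was at 29.7, 67.0, 79.4, 40.9 and 16.2 CPM. The saline-injected mice alone spanned a 35.5-fold range and contained both the lowest and the highest of the 10 values. The log2 fold change was 0.35 (SE 0.69, 95% interval -1.16 to 1.86, FDR = 0.70 by edgeR), an interval that includes a change of 2-fold in either direction. With 1 mouse left out the log2 fold change of Ddit4 ranged from 0.04 (without saline replicate 2) to 0.88 (without saline replicate 5), and it was 0.92 with both libraries that stood apart left out, never past the threshold. The log2 ratio of Ddit4 to Ndrg1 was 0.89 ± 1.98 and 0.87 ± 0.77 (SD, n = 5 each) and its groups overlapped (exact permutation test, p = 1, adjusted p = 1).

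Of the 7 other brakes on mTORC1 listed, none rose and 3 fell (42.9%, against 22.0% of all tested genes), with a median log2 fold change of -0.11. Tsc1, a subunit of the TSC complex, fell from 26.9 ± 3.22 to 14.0 ± 2.23 CPM (SD, n = 5 each; log2 fold change -0.94, FDR = 0.00015 by edgeR). Deptor, a direct binding partner of mTOR, and Sesn1, a leucine sensor, fell by 0.96 and 0.50 on the log2 scale (FDR = 0.018 and 0.027 by edgeR). The call of Sesn1 was lost without saline replicate 3 or CD95-Ab replicate 1 or 2, at an FDR of at most 0.060 by edgeR. Glucocorticoid-inducible genes were set beside Ddit4, since that hormone also induces it, and 3 of 10 rose (Cdkn1a, Mt2 and Sgk1) and 1 fell. The share that rose was close to that of all tested genes, of which 25.4% were called higher and 22.0% lower. Sgk1, a kinase of salt transport, had a log2 fold change of 0.86 (FDR = 0.033 by edgeR), and 0.52 (FDR = 0.094 by edgeR) without CD95-Ab replicate 3, and its call was also lost without saline replicate 2, 3 or 4. The gene that fell was Tsc22d3, which encodes the glucocorticoid-induced leucine zipper protein, which ranged over 46.9 to 191 CPM among controls and 19.4 to 26.5 CPM among injected mice (log2 fold change -2.26, SE 0.30, FDR = 9.9e-05 by edgeR). Cdkn1a, a cell cycle inhibitor that p53 also induces, was at 0.889 to 23.6 CPM and then at 35.4 to 191 CPM (log2 fold change 3.19, SE 0.77, FDR = 0.0050 by edgeR).

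**Figure D4:**
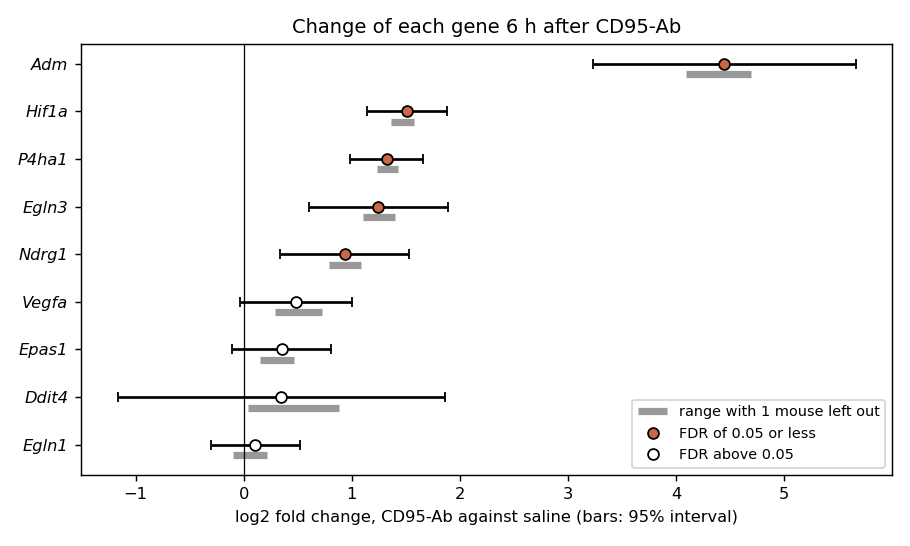
Log2 fold change of each of the 9 genes, CD95-Ab against saline, with 95% intervals in black, the range over fits with 1 mouse left out in grey and filled points for an FDR of 0.05 or less. The intervals of Adm, Hif1a, P4ha1, Egln3 and Ndrg1 lie above 0, and those of Vegfa, Epas1, Ddit4 and Egln1 include it.

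Levels of different genes can be compared per transcript length, for which the deposited FPKM values were used. In saline-injected mice the order of the means was Vegfa (56.4 FPKM), Epas1 (26.8), Ddit4 (21.8), Hif1a (7.26), Egln3 (4.95), Egln1 (4.93), Ndrg1 (4.38), P4ha1 (2.67) and Adm (0.734). After CD95-Ab it was Vegfa (68.2 FPKM), Epas1 (32.4), Ddit4 (27.3), Hif1a (19.03), Adm (15.2), Egln3 (10.9), Ndrg1 (7.86), P4ha1 (6.17) and Egln1 (4.95). Adm went from the ninth to the fifth place and Egln1 from the sixth to the ninth, while the first 4 places kept their order. Among neighbours in these orders, Vegfa and Epas1 in both groups and P4ha1 and Adm in the saline group did not overlap between mice, and all other neighbours did.

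The mice differed from each other across several of the 9 genes together. CD95-Ab replicate 3 was the highest mouse of its group in 7 of 9 genes and replicate 1 the lowest in 4. Among saline-injected mice, replicate 3 was the highest in 5 genes and replicate 2 the lowest in 4. How often each mouse held these places over all tested genes was not tested. For each of the 9 genes, the most similar expression profile over the 10 mice among 13710 other tested genes was sought by root mean square distance in log2 CPM, as a description. Hif1a lay 0.098 from Rap1b, a small GTPase, Epas1 0.11 from Gm20388, Egln1 0.13 from Bnip3l, a mitophagy receptor, Vegfa 0.14 from Rbm25, a splicing factor, and P4ha1 0.15 from Tsc22d2. Ndrg1 lay 0.21 from Pid1, Egln3 0.27 from Klf2, a flow-responsive factor of endothelial cells, Adm 0.50 from Dbn1, which encodes the actin-binding protein drebrin, and Ddit4 0.73 from Cpz.

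Other genes known to be induced by hypoxia did not move as a block. Of 29 tested genes on a list of 33, 12 rose, 6 fell and 11 did not pass the test. The shares, 41.4% higher and 20.7% lower, stand beside 25.4% and 22.0% of all tested genes. With both libraries that stood apart left out, 13 rose and 6 fell. The median log2 fold change of the 29 genes was 0.05, with values from -3.83 to 3.78. Those with the largest rises were Angpt2, an antagonist of vessel stability (0.568 ± 0.177 to 7.87 ± 2.39 CPM, SD, n = 5 each), Edn1, the vasoconstrictor endothelin (0 to 0.538 CPM against 1.16 to 8.04 CPM), and Hmox1, which degrades haem (27.2 ± 12.7 to 269 ± 61.4 CPM, SD, n = 5 each), with log2 fold changes of 3.78, 3.44 and 3.30. Ppp1r3c, a glycogen-targeting subunit of protein phosphatase 1, fell from 84.0 ± 29.4 to 5.91 ± 1.92 CPM (SD, n = 5 each; log2 fold change -3.83, SE 0.32, FDR = 3.2e-06 by edgeR). Bnip3, a mitophagy receptor, and Angptl4, an inhibitor of lipoprotein lipase, both known HIF targets and named here after their values were seen, fell by 1.24 and 1.65 on the log2 scale.

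Among 20 glycolytic genes known to be hypoxia-inducible, 10 rose and 3 fell, with a median log2 fold change of 0.49. Slc16a3, which exports lactate, was at 0.503 ± 0.281 CPM and then at 17.5 ± 5.88 CPM (SD, n = 5 each; log2 fold change 5.06, SE 0.39, FDR = 2.0e-06 by edgeR). The hexokinase Hk2, the glucose transporter Slc2a3 and the pyruvate kinase Pkm had log2 fold changes of 3.35, 3.23 and 2.91. The genes that fell, named after their values were seen, were Pdk1 (log2 fold change -1.08, FDR = 0.00074 by edgeR), Gpi1 (-0.57, FDR = 0.045 by edgeR) and Eno1 (-0.43, FDR = 0.042 by edgeR). The calls of Gpi1 and Eno1 were lost in 9 and 10 of 18 alternatives, at an FDR of at most 0.11 by edgeR. With both libraries that stood apart left out, 11 rose and 1 fell, and 1 fell as well without saline replicate 1 or 5 or CD95-Ab replicate 2 or 5. The count that fell was between 1 and 5 under other scalings and filters. Markers of neutrophils, macrophages and other cells than hepatocytes rose in the same mice, as given above, and their part in these counts was not tested.

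**Figure D5:**
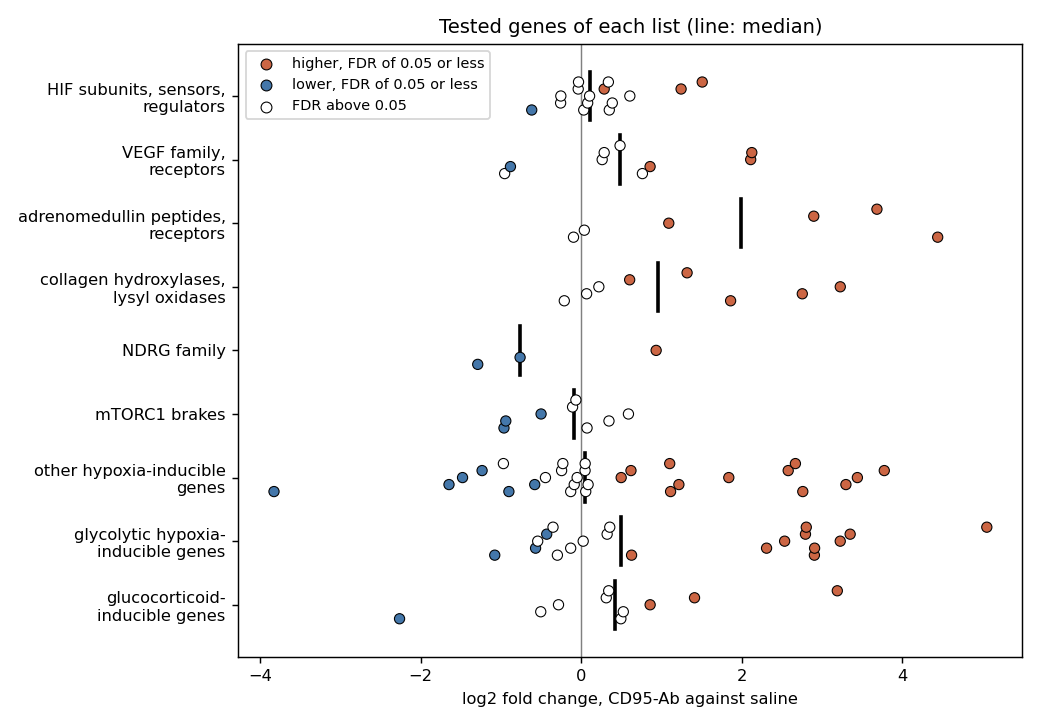
Log2 fold change, CD95-Ab against saline, of each tested gene on 9 lists, with red for higher and blue for lower at an FDR of 0.05 or less, white for the rest and a black line for the median of each list. The medians range from -0.76 for the NDRG family to 2.00 for adrenomedullin peptides and receptors, and the list of other hypoxia-inducible genes spreads to both sides of 0. Lists to which some of the 9 genes belong are shown with those genes included.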

How the data were processed

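Total liver RNA from each mouse was sequenced as paired reads of 100 bp after TruSeq library preparation from 500 ng. The labels name each sample as a biological replicate, so n counts mice. The authors assigned reads with RSEM 1.2.19 and deposited 1 table per mouse. The expected counts deposited by the authors were whole numbers without normalization. The FPKM values deposited by the authors were scaled for transcript length and library total, and served for levels between genes and for 1 alternative. RSEM divides reads that fit several genes, so values of overlapping genes depend on it, and counting by strand is not given in the sources used here. The methods name a human Gencode release for the assignment of reads, whereas the identifiers are mouse Ensembl identifiers, and the mouse annotation and build are not given in the sources used here either. Symbols and positions came from GENCODE mouse release 21 (GRCm38), which named 37606 of 38922 identifiers, and promoter sequences from RefSeq (GRCm38.p6).

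Genes were kept with filterByExpr (minimum count 10) and fitted with TMM factors and group as the only term by edgeR 4.0.16 in R 4.3.3, with FDR of 0.05 or less as the threshold. SE was the log2 fold change divided by the square root of F. Ratios of counts used a pseudocount of 0.5 and an exact permutation test in scipy 1.17.1. Tables were made with Python 3.11.15 and pandas 2.3.3, and plots with matplotlib 3.10.9. Principal components used log2 CPM with a prior count of 2. On simulated data with known answers (13617 genes), 98% of 100 genes with an absolute log2 fold change of 2 were recovered. This share does not speak for smaller changes, such as those of Hif1a, P4ha1, Egln3 and Ndrg1. Genes with a smaller change were simulated as well, and their recovery is not reported here. Far fewer genes were changed in the simulation than were called in the data. On the TMM-adjusted totals of these libraries, 3 counts equal 0.0556 to 0.121 CPM, and this limit covers counting error only.

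The members and the gene lists were chosen with earlier results of these data known, and the genes of the ratios come from these lists. Named genes were all members, the HIF, VEGF and adrenomedullin lists, up to 4 genes with the largest called changes on each other list (not the cell markers), and the nearest profile of each member. P4ha2 is named for its ratio to P4ha1, and P4hb, Plod3, Bnip3, Angptl4, Pdk1, Gpi1 and Eno1 were named after their values were seen. Alternatives were other scaling factors, DESeq2 1.42.0, other filters, thresholds and pseudocounts, FPKM, the replicate number as a block, each mouse left out, and, chosen after seeing the data, both libraries apart on the second component left out. All 20 pairs of replicates within a group differed by more than sampling noise (chi-square per degree of freedom of at least 39.4).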

Additional observations from a re-analysis of the deposited data

Results flagged for a closer look

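Within each group of 5 mice, the highest and the lowest value were compared with the rest by Dixon's ratio at its 95% critical value of 0.71, for 114 sets of 5 values. A mouse stood far from the others in 12 of these, and chance alone flags about 1 in 20 sets. CD95-Ab replicate 3 accounted for 6 of them, in each as the highest mouse: Egln1 at 27.0 CPM (others 14.2 to 17.6 CPM), Ramp2 at 4.78 CPM (others 2.87 to 3.39 CPM), Ackr3 at 8.16 CPM (others 2.23 to 2.48 CPM), Lox at 6.17 CPM (others 0.738 to 2.21 CPM), Plod2 at 6.49 CPM (others 1.66 to 2.41 CPM) and Sgk1 at 84.6 CPM (others 31.5 to 40.4 CPM). Egln1 was also far from the rest in saline replicate 3, at 21.4 CPM (others 14.0 to 15.9 CPM). Saline replicate 5 was the lowest control for Hif1a, at 22.8 CPM (others 30.3 to 32.8 CPM), and for Ndrg3, at 11.8 CPM (others 15.5 to 17.0 CPM). Ndrg3 was highest in CD95-Ab replicate 5, at 8.15 CPM (others 5.53 to 6.26 CPM). Lox was at 0.0 CPM in saline replicate 2 (others 0.259 to 0.346 CPM). The log2 ratio of Ddit4 to Ndrg1 was -0.50 in CD95-Ab replicate 5 (others 1.05 to 1.30).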

How the results depend on the processing

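Of 627 recomputed values, 592 kept their direction and side of the threshold or stayed within 1.5 times the count, 23 counts moved further, 4 tests were weaker, 3 stronger and 5 reversed, and the cause was not tested. With an absolute log2 fold change of at least 2 required, 904 genes were higher, 152 lower, and 1 of the 9 members higher. The VEGF list had 2 genes lower with RLE, upper-quartile or total scaling and with DESeq2, 3 to 5 higher and 1 to 2 lower with 1 mouse left out. The adrenomedullin list had 2 higher with at least 10 counts in every mouse, where Ramp3 and Ackr3 were not tested, and the collagen list 1 lower with upper-quartile factors. The glycolytic list had 5 lower with upper-quartile or total scaling and DESeq2, 1 lower with at least 10 counts in every mouse, with the replicate block and with both libraries apart left out, and 1 to 4 lower with 1 mouse left out (1 without saline replicate 1 or 5 or CD95-Ab replicate 2 or 5). With 1 mouse left out, the log2 fold change was 0.15 to 0.46 for Epas1 (FDR by edgeR 0.049 to 0.51), -0.10 to 0.21 for Egln1, 0.29 to 0.72 for Vegfa (FDR by edgeR 0.0098 to 0.32), 0.55 for Vegfa without both libraries apart, and 0.04 to 0.88 for Ddit4 (0.76 with the replicate block and 0.92 without both libraries apart). The calls of Arnt, Sesn1, Sgk1, Gpi1 and Eno1 were lost in 11, 4, 4, 9 and 10 of 18 alternatives, those of Arnt (FDR by edgeR 0.068), Sesn1 (0.051), Gpi1 (0.11) and Eno1 (0.074) with the replicate block among them. The HIF list had 2 to 4 higher and the mTORC1 list 2 to 3 lower over the alternatives. The Ddit4 to Ndrg1 difference ranged from -0.75 to 0.54, positive without saline replicate 1, 3 or 5 or CD95-Ab replicate 5. Scaling moved the median of all genes by at most 0.08 on the log2 scale. Same-numbered mice did not deviate together (correlation -0.27 to 0.26, over 0.1 for 2 of 5 numbers), so the numbers were not taken as pairs. With the replicate block the log2 differences of the ratios were 1.197 for Hif1a to Epas1, 1.10 for Egln3 to Egln1, 3.61 for Adm to Vegfa and 1.14 for P4ha1 to P4ha2, each at an adjusted p of 0.0781 in the exact sign-flip test, whose smallest raw p with 5 pairs is 0.0625. The block called the same number of members, 5. Depth limits Ramp3, Lox and Edn1, which had 0 or 1 count in at least 1 control.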
